A study of Marchantia polymorpha with 9 samples.

Results

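Late embryogenesis abundant (LEA) proteins are hydrophilic, mostly unstructured proteins that build up in drying seeds, pollen and other tissues that survive water loss, where they are thought to shield membranes and enzymes. Their genes are classic targets of abscisic acid, the plant hormone of water deficit, and in the liverwort Marchantia polymorpha treatment with abscisic acid is known to raise desiccation tolerance together with LEA transcripts. The genes described here are 5 LEA-like genes that lie together on chromosome 6, MpLEA-like34 (Mp6g02970), MpLEA-like36 (Mp6g02990), MpLEA-like42 (Mp6g03090), MpLEA-like43 (Mp6g03100) and MpLEA-like44 (Mp6g03110), out of 20574 genes in the deposited tables. They were taken by name, and they had been chosen by their measured log2 differences of the mutants from BoGa, which were among the highest, so these differences are given as a description with no test. What the choice did not use was tested, namely the difference between the mutants and the behaviour of the genes around them.

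RNA was sequenced from whole plants (thallus, 3 weeks old) in 3 untreated groups of 3 libraries. BoGa is the wild type, and Mpb-gata1-1 is, like Mpb-gata1-2, a mutant of the B-class GATA gene that its name gives. Plants of all groups had grown on diluted Gamborg's B5 medium at 22 °C and 40 µmol m-2 s-1 with 16 h light and 8 h dark. Each library came from 3 pooled plants, each mutant is a single line for its allele, and the labels do not describe the lesions. GATA proteins are zinc finger transcription factors, and those of the B class promote greening in flowering plants.

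Depth was 24823337 to 44133919 gene reads per library, and 14667 genes had enough reads to be tested. MpGATA4 (Mp7g03490), taken from knowledge of the study to be the mutated gene, stood at 151 ± 3.37 CPM (read counts scaled to library depth with TMM factors) for BoGa, 252 ± 5.07 for Mpb-gata1-1 and 283 ± 3.64 for Mpb-gata1-2 (SD, n = 3). It was thus higher in both mutants than in BoGa (log2 difference of the mean 0.82, adjusted p = 4.45e-07 in edgeR), and these counts do not show the lesion. Photosynthetic and thallus genes were expressed in every group, with the Rubisco small subunit gene MpRBCS at 138 ± 44.5, 115 ± 20.2 and 97.6 ± 13.5 CPM in the order BoGa, Mpb-gata1-1, Mpb-gata1-2 (SD, n = 3; log2 difference -0.38, adjusted p = 0.104 in edgeR). Of the 6 thallus markers, 3 fell in the mean of the mutants and none rose, namely MpGUN4 (-0.54, adjusted p = 0.000183) and MpCHLD (-0.38, adjusted p = 0.000215), both of chlorophyll synthesis, and the auxin synthesis gene MpYUC2 (-0.30, adjusted p = 0.00951), all in edgeR. MpYUC2 differed from BoGa by -0.58 for Mpb-gata1-1 (adjusted p = 0.000602) but by -0.02 for Mpb-gata1-2 (adjusted p = 0.899), also in edgeR. By the same test against BoGa, 5 of the 6 markers were lower for Mpb-gata1-1, but only 2 for Mpb-gata1-2, MpGUN4 and MpCHLD. The part of these markers in the results below was not tested. Genes of the male V chromosome differed between the groups. Their relative level (median of 22 genes, set to the mean of Mpb-gata1-2) was 0.360 to 0.664 for BoGa, 0.0174 to 0.0254 for Mpb-gata1-1 and 0.947 to 1.04 for Mpb-gata1-2.

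The 5 genes were low in BoGa, most of them almost silent, and clearly expressed in every mutant library. MpLEA-like36 was the highest of them in BoGa, with 30 to 43 reads per library. Summed over the 5, BoGa libraries held 56, 39 and 72 reads, the Mpb-gata1-1 libraries 1019, 791 and 1219, and the Mpb-gata1-2 libraries 1225, 1789 and 1702. Their summed level was 1.23 to 1.97 CPM for BoGa, 23.1 to 40.7 CPM for Mpb-gata1-1 and 43.3 to 54.0 CPM for Mpb-gata1-2. For each of the 5 genes, all 6 mutant libraries lay above all 3 BoGa libraries, as they did for 2405 of the 14667 tested genes (16.4%). Because the genes were chosen for this contrast, nothing is read from that count. All 5 passed the filter on low counts, which they did through the mutant libraries.

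**Figure D1:**
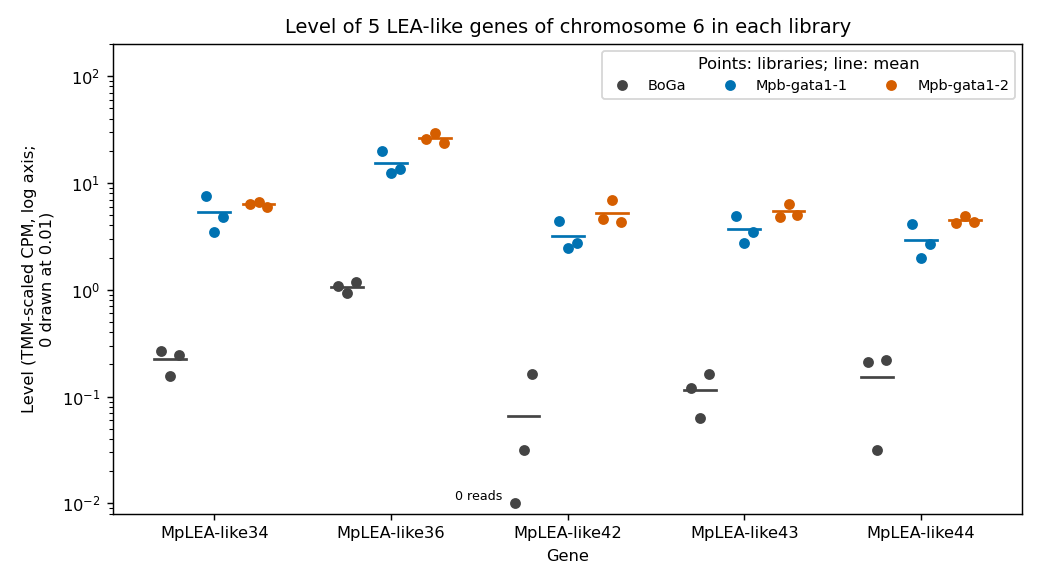
Level of the 5 LEA-like genes in each library, as TMM-scaled CPM on a log axis; points are libraries and the line is the mean of 3 libraries. Every mutant point lies above every BoGa point of the same gene, and MpLEA-like36 is the highest of the 5 genes in each group.

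The genes form a proximal pair and a distal trio, all on the plus strand. MpLEA-like34 (chromosome 6, 3398849 to 3399566) and MpLEA-like36 (3403867 to 3404574) are 4.30 kb apart with MpLEA-like35 between them. MpLEA-like42 (3503805 to 3504628), MpLEA-like43 (3506664 to 3507712) and MpLEA-like44 (3514584 to 3515363) follow 99.2 kb further on, with gaps of 2.04 and 6.87 kb and no annotated gene between them. The whole stretch spans 116.5 kb, and none of the 5 overlaps another annotated gene. Positions are those of the deposited tables, whose genome build is not given in the sources used here.

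MpLEA-like36 was the most abundant of the 5. Its reads numbered 36, 30 and 43 in the BoGa libraries, 494, 426 and 606 in Mpb-gata1-1, and 692, 965 and 926 in Mpb-gata1-2. Scaled to depth, the 3 groups did not overlap, with BoGa at 0.942 to 1.18 CPM, Mpb-gata1-1 at 12.5 to 19.8 CPM and Mpb-gata1-2 at 23.5 to 29.1 CPM. The ratio of depth-scaled reads to BoGa was 13.7 in Mpb-gata1-1 (95% interval 11.3 to 16.8) and 24.3 in Mpb-gata1-2 (20.1 to 29.8). Such intervals, here and below, cover counting error only.

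MpLEA-like34, its neighbour, had 9, 5 and 9 reads for BoGa, 189, 119 and 217 for Mpb-gata1-1, and 169, 219 and 235 for Mpb-gata1-2. Its level was 0.224 ± 0.0591 CPM for BoGa, 5.29 ± 2.08 CPM for Mpb-gata1-1 and 6.31 ± 0.316 CPM for Mpb-gata1-2 (SD, n = 3). The mutants overlapped each other, because Mpb-gata1-1 replicate 1, at 7.56 CPM, was the highest of all libraries. The ratio to BoGa was 22.4 in Mpb-gata1-1 (95% interval 14.7 to 35.6) and 27.8 in Mpb-gata1-2 (18.4 to 44.2).

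MpLEA-like42 was the rarest of the 5 in BoGa, with 0, 1 and 6 reads. The BoGa library without a read allows a level of up to 0.0896 CPM, the value of 3 reads. The mutants held 110, 85 and 123 reads (Mpb-gata1-1) and 123, 228 and 171 reads (Mpb-gata1-2), or 3.21 ± 1.04 and 5.28 ± 1.39 CPM (SD, n = 3), with overlapping ranges. The ratio to BoGa was 44.5 in Mpb-gata1-1 (95% interval 21.4 to 112) and 76.6 in Mpb-gata1-2 (36.9 to 192), and it rests on 7 BoGa reads, 6 of them in replicate 3. The fitted log2 difference of the mean of both mutants from BoGa was 5.83, and without BoGa replicate 3 it was 7.74.

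MpLEA-like43 had 4, 2 and 6 reads for BoGa, 122, 93 and 154 for Mpb-gata1-1, and 129, 213 and 199 for Mpb-gata1-2. Its level was 0.116 ± 0.0508, 3.68 ± 1.10 and 5.44 ± 0.859 CPM in the order BoGa, Mpb-gata1-1, Mpb-gata1-2 (SD, n = 3), and the highest Mpb-gata1-1 library, at 4.88 CPM, lay just above the lowest Mpb-gata1-2 library, at 4.84 CPM. The ratio to BoGa was 30.1 (95% interval 17.0 to 58.8) for Mpb-gata1-1 and 46.3 (26.3 to 90.2) for Mpb-gata1-2.

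MpLEA-like44 had 7, 1 and 8 reads for BoGa, 104, 68 and 119 for Mpb-gata1-1, and 112, 164 and 171 for Mpb-gata1-2. Its 3 groups did not overlap, at 0.0314 to 0.219 CPM for BoGa, 1.99 to 4.16 CPM for Mpb-gata1-1 and 4.20 to 4.95 CPM for Mpb-gata1-2. The ratio to BoGa was 17.8 (95% interval 10.8 to 31.6) for Mpb-gata1-1 and 28.7 (17.5 to 50.7) for Mpb-gata1-2.

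As fitted log2 differences of the mean of both mutants from BoGa, the values were 4.65 ± 0.32 for MpLEA-like34, 4.21 ± 0.20 for MpLEA-like36, 5.83 ± 0.51 for MpLEA-like42, 5.20 ± 0.33 for MpLEA-like43 and 4.49 ± 0.39 for MpLEA-like44 (SE). The smallest of these, that of MpLEA-like36, was close to those of other LEA genes of the same stretch that were not chosen, with 4.20 ± 0.32 for MpLEA-like45 and 4.15 ± 0.48 for MpLEA-like38.

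Levels per gene length were compared as the authors' RPKM values. In RPKM, MpLEA-like36 was first in every library, at 1.44 ± 0.162 for BoGa, 21.3 ± 5.38 for Mpb-gata1-1 and 36.4 ± 4.01 for Mpb-gata1-2 (SD, n = 3). MpLEA-like34 was second in every library, at 0.299 ± 0.0801, 7.29 ± 2.82 and 8.63 ± 0.475 RPKM. The distal trio followed at 0.0756 to 0.188 RPKM for BoGa, 3.47 to 3.85 for Mpb-gata1-1 and 5.10 to 6.30 for Mpb-gata1-2 (group means). Within a group the ranges of neighbours in that order overlapped, so the trio cannot be ranked, and only MpLEA-like36 stood clear of the next gene. Among all 20574 genes by mean RPKM, MpLEA-like36 stood above 45.4% of genes for BoGa, 87.1% for Mpb-gata1-1 and 93.0% for Mpb-gata1-2. MpLEA-like42 stood above 25.9%, 56.2% and 64.7% of genes.

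The share of each gene in the pooled reads of the 5 follows from the same differences from BoGa by which the genes were chosen, and is given as a description. MpLEA-like36 gave 65.3% of the pooled reads for BoGa (Wilson 95% interval 57.8 to 72.1), 50.4% for Mpb-gata1-1 (48.6 to 52.2) and 54.8% for Mpb-gata1-2 (53.4 to 56.2). By library its share was 59.7 to 76.9% in BoGa and 48.5 to 56.5% in the 6 mutant libraries. MpLEA-like42 gave 4.19% for BoGa (2.05 to 8.40, from 7 reads), 10.5% for Mpb-gata1-1 and 11.1% for Mpb-gata1-2. The share of MpLEA-like44 was 9.58% for BoGa (5.98 to 15.0, from 16 reads), 9.61% for Mpb-gata1-1 and 9.48% for Mpb-gata1-2. By library it was 2.56 to 12.5% in BoGa.

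The 5 genes moved together between libraries of 1 group. In Mpb-gata1-1 replicate 1 each of them was above its group mean, on average by 0.49 (log2 CPM), and in Mpb-gata1-1 replicate 2 each was below it, on average by -0.40. In Mpb-gata1-2 replicate 2 each was above its group mean (0.20 on average). The 7 other tested LEA genes of the same stretch were likewise all above their group means in Mpb-gata1-1 replicate 1 and Mpb-gata1-2 replicate 2, and all below in Mpb-gata1-1 replicate 2. Some genes outside this stretch moved in the same way in these libraries, among them MpLEA1, MpDHN1 and MpCALEOSIN, whereas MpCAT2 did not. The share of all tested genes that did so was not counted, so the shared movement cannot be read as a trait of the array. Mpb-gata1-1 replicate 1 is also the library with the fewest reads, and the part of depth in this pattern was not tested.

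Mpb-gata1-2 had higher fitted levels than Mpb-gata1-1 for each of the 5 genes, but the difference passed the test only for MpLEA-like36. It was 1.73-fold higher in Mpb-gata1-2 (95% interval 1.36 to 2.20), a log2 difference of 0.79 ± 0.16 (SE, adjusted p = 0.00357 in edgeR's quasi-likelihood test), with 3 of 3 Mpb-gata1-2 libraries above all Mpb-gata1-1 libraries. For the other genes the fold difference was 1.67 (95% interval 1.03 to 2.69) for MpLEA-like42, 1.56 (1.01 to 2.39) for MpLEA-like44, 1.49 (1.07 to 2.08) for MpLEA-like43 and 1.20 (0.845 to 1.72) for MpLEA-like34. Their adjusted p-values in the same edgeR test were 0.101, 0.112, 0.0646 and 0.415. Of all tested genes, 14.9% were higher in Mpb-gata1-2 by this test (30.9% differed in either direction), and in 23.9% all 3 Mpb-gata1-2 libraries lay above all Mpb-gata1-1 libraries, as in MpLEA-like36 and MpLEA-like44.

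This comparison depended on Mpb-gata1-1 replicate 1, the high library of that group. Without it all 5 genes passed (log2 differences of 0.58 to 1.00, adjusted p = 0.000177 to 0.0488 in edgeR). With only the 2 mutants in the fit 4 of the 5 passed, and without BoGa replicate 3 it was 3 of 5. The mutant lines also differ in their V chromosome level (0.0174 to 0.0254 against 0.947 to 1.04), which cannot be told apart from the allele in this design.

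**Figure D2:**
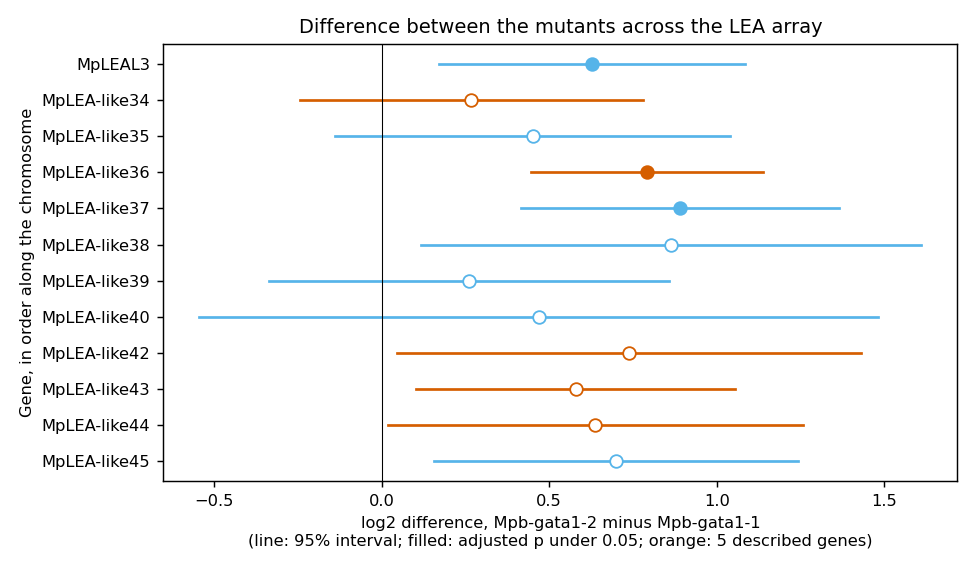
Log2 difference between the mutants (Mpb-gata1-2 minus Mpb-gata1-1) for the 12 tested LEA genes of the stretch, in order along the chromosome, with 95% intervals; filled points passed at an adjusted p under 0.05 and orange marks the 5 described genes. All 12 values are above 0, from 0.26 to 0.89, and 3 of them passed. Of all 14667 tested genes, 7343 had a value above 0, and 14.9% were higher in Mpb-gata1-2 by this test.

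Among the 5 genes, only the proximal pair had reads not counted as unique. MpLEA-like42, MpLEA-like43 and MpLEA-like44 had 847, 922 and 754 reads over the 9 libraries, all of them unique to the gene (Wilson 95% lower bounds 99.5 to 99.6%). MpLEA-like36 had 99.4% unique reads (99.2 to 99.6), with 24 shared reads of 4218. For MpLEA-like34 the share was 84.6% (82.4 to 86.6), with 180 shared reads of 1171.

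The unique share of MpLEA-like34 overlapped between the groups. By library it was 60.0 to 100% for BoGa, where a library held 5 to 9 reads, 85.7 to 88.4% for Mpb-gata1-1 and 79.9 to 88.2% for Mpb-gata1-2. Over each group it was 82.6% (Wilson 95% interval 62.9 to 93.0), 87.0% (83.9 to 89.7) and 82.7% (79.5 to 85.4). Counted with unique reads alone, its log2 difference from BoGa was 4.68 in place of 4.65, and its difference between the mutants was 0.20 in place of 0.27 (adjusted p = 0.585, edgeR). Of the 9 other LEA genes of the stretch, 8 had shared reads and MpLEA-like46 had none. Their unique share was 83.4% for MpLEAL3, 84.3% for MpLEA-like38, 78.4% for MpLEA-like40 and 84.2% for MpLEA-like45, and higher for MpLEA-like35 (99.5%), MpLEA-like37 (97.6%) and MpLEA-like39 (94.6%). MpLEA-like41 had 9 shared reads of 10.

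**Figure D3:**
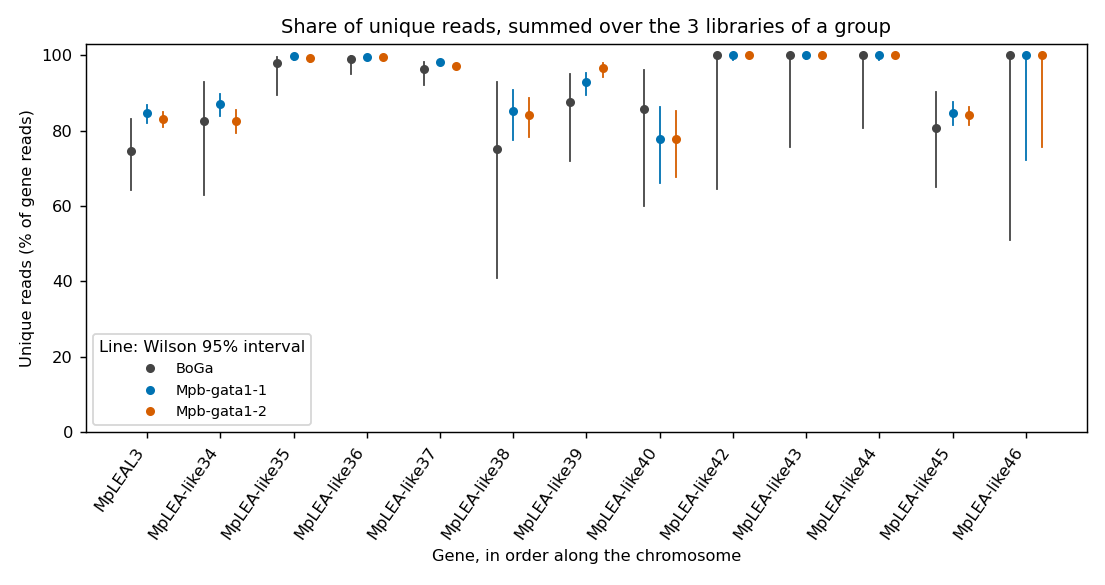
Share of unique reads for 13 LEA genes of the stretch, in percent of all reads of the gene, summed over the 3 libraries of each group, with Wilson 95% intervals; MpLEA-like41, with 10 reads in all, is not drawn. MpLEA-like42, MpLEA-like43 and MpLEA-like44 sit at 100% in each group, and MpLEA-like34 at 82.6 to 87.0%.

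The 5 genes belong to a longer array of LEA genes. The 10 annotated genes on either side of the 5 and those between them include 9 more with a LEA name, from MpLEAL3 (Mp6g02960) upstream to MpLEA-like46 (Mp6g03130) downstream, so that the array holds 14. Of these 9, 7 were tested, and all 7 rose in the mean of the mutants and in each mutant against BoGa (edgeR, adjusted p under 0.05). MpLEA-like38 (1, 2 and 5 BoGa reads) and MpLEA-like40 (1, 7 and 6) passed the filter on low counts through the mutant libraries. An array gene that stayed that low in the mutants would not have been tested, so the filter partly fixed this count. Of all tested genes, 22.7% rose in the mean of both mutants, 23.0% in Mpb-gata1-1 alone against BoGa and 21.7% in Mpb-gata1-2. Counting both directions, 48.8%, 46.0% and 46.4% changed. The 7 log2 changes had a median of 3.89 and ranged from 2.39 to 4.20, against a median of -0.02 over all tested genes.

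MpLEA-like37 (Mp6g03000), next to MpLEA-like36, was the most abundant of these neighbours in CPM. It rose by 3.97 ± 0.26 (log2, SE; adjusted p = 2.46e-06 in edgeR), with 71, 27 and 63 reads for BoGa, 606, 503 and 717 for Mpb-gata1-1, and 842, 1258 and 1243 for Mpb-gata1-2. MpLEAL3 (Mp6g02960), at the upstream end, rose by 3.89 ± 0.26 (adjusted p = 2.59e-06 in edgeR), and MpLEA-like35 (Mp6g02980), between the proximal pair, by 3.39 ± 0.32. MpLEA-like37 and MpLEAL3 also differed between the mutants, with log2 differences of 0.89 (adjusted p = 0.0103) and 0.63 (adjusted p = 0.0415) in edgeR. The call of MpLEAL3 was lost with the replicate block (adjusted p = 0.0555) and in 9 other alternatives.

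At the distal end MpLEA-like45 (Mp6g03120) rose by 4.20 and, in the middle, MpLEA-like39 (Mp6g03050) by 3.48. The smallest rise was that of MpLEA-like40 (Mp6g03060), 2.39 ± 0.54 (adjusted p = 0.0043 in edgeR), from 1, 7 and 6 reads for BoGa to 27, 10 and 26 for Mpb-gata1-1 and 23, 37 and 25 for Mpb-gata1-2. The last gene of the array, MpLEA-like46 (Mp6g03130), had too few reads to be tested, with 4 for BoGa, 10 for Mpb-gata1-1 and 12 for Mpb-gata1-2. MpLEA-like41 (Mp6g03070) had 10 reads in BoGa replicate 1 and none in any other library, but it holds the whole of the unnamed gene Mp6g03080 on the same strand. Mp6g03080 rose by 3.46 (adjusted p = 1.42e-05 in edgeR) and none of its reads were unique, so reads of these 2 genes cannot be told apart.

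**Figure D4:**
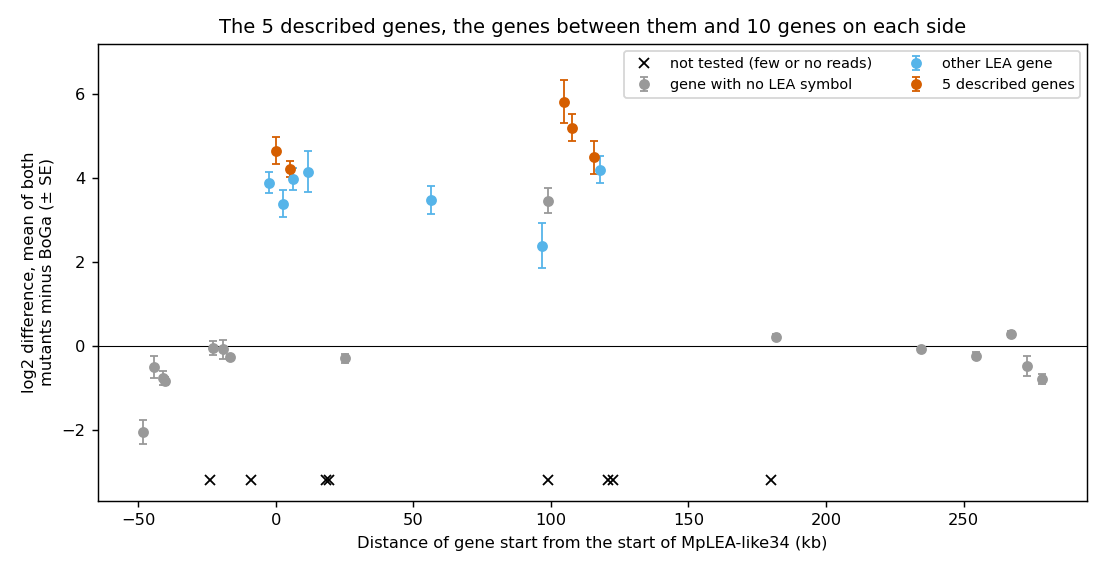
Log2 difference of the mean of both mutants from BoGa (± SE) against the distance of each gene's start from the start of MpLEA-like34 in kb, for the 5 described genes, the genes between them and 10 genes on each side; crosses are genes that were not tested. LEA genes lie between 2.39 and 5.83, and the other tested genes between -2.06 and 0.27 except the unnamed Mp6g03080 at 3.46.

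Most genes beside the array did not share the rise. Of the 21 other genes in this window 15 were tested, and 3 rose and 7 fell in the mean of the mutants (26.1% of all tested genes fell). Apart from Mp6g03080, the rises were 0.21 and 0.27 on the log2 scale. Inside the array Mp6g03040 fell by 0.30 (adjusted p = 0.0342 in edgeR), a call that was lost without any one of 7 libraries (adjusted p = 0.0505 to 0.0931) and with limma. Mp6g02950 (MpCCAAT-NFYB4), the gene next to MpLEAL3, had no reads in any library.

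Elsewhere in the genome, 58 more genes carry a LEA or dehydrin name (dehydrins are a class of LEA proteins). Of the 55 tested, 39 rose and 7 fell in the mean of the mutants, where 22.7% and 26.1% of all tested genes did. The 55 log2 changes had a median of 1.29 and a range of -0.85 to 4.93. The highest, that of MpLEA-like52, rests on 1, 1 and 0 BoGa reads, and this gene passed the filter on low counts through the mutant libraries. The 3 rises with the smallest p were MpLEAL6 (4.19), MpLEA-like2 (3.16) and MpLEAL7 (4.25), and the 3 falls were MpLEA-like58 (-0.41), MpDHN2 (-0.61) and MpLEA-like31 (-0.64). A log2 difference of at least 4 was reached by 2 of the 7 other tested array genes and by 6 of these 55, and 0.573% of all tested genes reached it and passed.

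**Figure D5:**
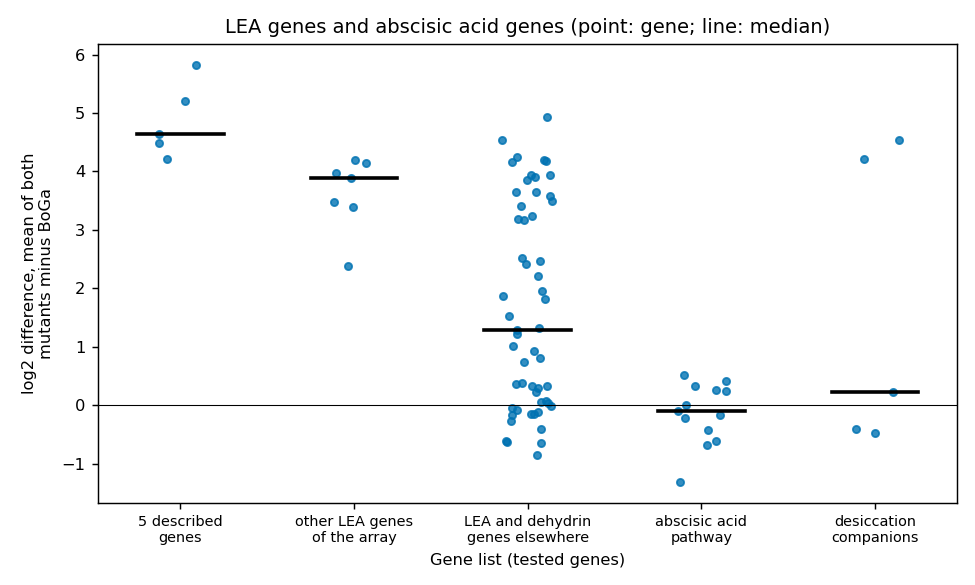
Log2 difference of the mean of both mutants from BoGa for the tested genes of 5 lists, with the median as a line. The LEA genes of the array lie above 2, the LEA and dehydrin genes elsewhere spread from -0.85 to 4.93, and the genes of the abscisic acid pathway lie between -1.31 and 0.51. The value of 4.93 is that of MpLEA-like52, which had 2 BoGa reads in all.

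Genes of abscisic acid synthesis, breakdown and signalling changed in both directions. Of 17 such genes 13 were tested, and 5 rose and 4 fell in the mean of the mutants (9 of 13, where 48.8% of all tested genes changed), with a median log2 change of -0.09. The rises with the smallest p were those of MpCYP707-like (0.51, adjusted p = 3.84e-05; CYP707 enzymes break down abscisic acid in flowering plants) and MpSNRK2A (0.24, adjusted p = 0.000909), which encodes a kinase of the hormone's signalling path. MpABI5A and MpABI3A, transcription factors that act on LEA genes in seed plants, rose by 0.25 (adjusted p = 0.00336) and 0.33 (adjusted p = 0.00366). MpSLAC1, an anion channel gene, fell by 1.31 (adjusted p = 0.0105) in this mean, with log2 differences from BoGa of -3.39 for Mpb-gata1-1 (adjusted p = 0.000354) and 0.77 for Mpb-gata1-2 (adjusted p = 0.0643). The fall in the mean did not pass without BoGa replicate 1 (0.0507) or with limma on TPM or RPKM (0.146 to 0.753). MpCYP707A fell by 0.62 (adjusted p = 0.0113), and all these values are from edgeR unless limma is named.

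Of 6 genes listed as companions of drying tolerance, 5 were tested. MpCAT1, a catalase gene, rose by 4.54 and MpCALEOSIN, a lipid droplet gene, by 4.22, whereas the catalase genes MpCAT2 and MpCAT4 fell by 0.41 and 0.47, the latter not without BoGa replicate 3 (adjusted p = 0.0878 in edgeR).

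Outside the window, the genes whose profile was most like the mean of the 5 were unnamed. Only genes with a mean log2 CPM of at least 1 were compared. MpLEA-like42, MpLEA-like43 and MpLEA-like44 themselves lay below this cut, at 0.27, 0.58 and 0.43, so genes as low as these were left out. The mean profile holds the difference from BoGa by which the 5 were chosen, so this likeness is a description. Over the 9 libraries, the root mean square difference in centred log2 CPM was 0.192 for Mp2g15740, 0.212 for Mp4g18610, 0.214 for Mp4g15050, 0.221 for Mp2g10930 and 0.250 for Mp2g12320, the lowest of 12136 genes compared. The 5 genes themselves differed from their own mean profile by 0.0962 (MpLEA-like43) to 0.501 (MpLEA-like42). Mp2g15740 stood at 2.34 ± 0.784 CPM for BoGa, 41.0 ± 15.2 for Mpb-gata1-1 and 81.4 ± 14.3 for Mpb-gata1-2 (SD, n = 3).

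Markers of other tissues were examined because whole plants were sampled, in which fewer cells of a type and less RNA per cell cannot be told apart. In the mean of the mutants 22.7% of all tested genes rose and 26.1% fell, beside which the counts below are to be read. Of the 5 genes listed for gemma cups and gemmae, the organs of asexual reproduction, 3 rose and 1 fell, and none was at 0. Their summed level was 302.8 to 326.4 CPM for BoGa, 311.7 to 342.1 for Mpb-gata1-1 and 337.5 to 351.5 for Mpb-gata1-2, most of it from MpROP. MpGCAM1, a MYB gene that gemma cups need to form, had the same order of groups as the 5 LEA genes, with 5.15 ± 0.639 CPM for BoGa, 15.3 ± 3.70 for Mpb-gata1-1 and 25.6 ± 3.91 for Mpb-gata1-2 (SD, n = 3). It rose by 1.93 (adjusted p = 1.49e-05 in edgeR), and its part in the result was not tested. Of the markers of rhizoids 1 of 2 rose and of oil body cells 1 of 5, and of 7 tested genes of sexual branches and gametes 3 fell in the mean of the mutants. MpBELL1 and MpR2R3-MYB1, among them, had log2 differences from BoGa of -6.93 and -3.76 for Mpb-gata1-1 (adjusted p = 3.48e-05 and 2.94e-05 in edgeR) but 0.10 and 0.61 for Mpb-gata1-2 (adjusted p = 0.81 and 0.079). Mpb-gata1-1 is also the group with the lowest V chromosome level (0.0174 to 0.0254), which cannot be told apart from the allele in this design.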

How the data were processed

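Per the labels' protocols, libraries of whole thallus plants were made with a stranded kit. Per the file headers, the deposited tables hold raw counts (all gene reads, and the unique ones) beside the authors' TPM and RPKM values. The aligner, build, annotation and strand setting are steps not given in the sources used here. Gene names were matched by locus number to a name table of the assembly MpTak2_v7.1 (17641 of 20574 genes); its positions were not used.

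Total gene reads were tested in edgeR 4.0.16 (R 4.3.3) with filterByExpr, TMM scaling and the robust quasi-likelihood test, all 9 libraries in the fit and group as the only term. P-values were adjusted by Benjamini-Hochberg across 14667 genes, and an adjusted p under 0.05 passed. In all, 3330 genes were higher and 3824 lower in the mean of both mutants than in BoGa, but 4582 and 2545 with limma 3.58.1 on log2(TPM + 1). For Mpb-gata1-1 the split was 3369 to 3377 (4541 to 2340 with that limma fit) and for Mpb-gata1-2 it was 3190 to 3621 (4198 to 2546). Log2 CPM used a prior count of 2. The test was checked on simulated data.

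The alternatives tried were DESeq2 1.42.0, scaling by RLE or upper-quartile factors, other filters on low counts, unique reads, the replicate number as a block, only the groups compared, limma on TPM or RPKM with pseudocounts of 1 and 0.1, and leaving out each library. Read ratios have exact 95% intervals and shares Wilson 95% intervals. The members and gene lists were chosen with earlier results of these data known. The text names the 5 members, LEA genes and neighbours within 10 genes of them, the leading genes by p of the other lists, and the 5 genes most alike in profile. Markers were matched by symbol or synonym, and MpRSL3 was not analysed here. Nothing in the labels says whether replicates were grown separately, so p-values measure the spread between these pools of plants, which may be technical.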

Additional observations from a re-analysis of the deposited data

Results flagged for a closer look

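Levels differed between the mutant lines for 3 LEA genes of the array, by the edgeR test of the difference itself. The lines also differ in V chromosome level, which cannot be told apart from the allele in this design. The log2 difference, Mpb-gata1-2 minus Mpb-gata1-1, was 0.79 for MpLEA-like36 (adjusted p = 0.00357), 0.89 for MpLEA-like37 (adjusted p = 0.0103) and 0.63 for MpLEAL3 (adjusted p = 0.0415). The difference of MpLEAL3 did not pass with the replicate block (adjusted p = 0.0555) or in 9 other alternatives. All 3 Mpb-gata1-2 libraries lay above all 3 Mpb-gata1-1 libraries for MpLEA-like36 and MpLEA-like37 but not for MpLEAL3. Of all 14667 tested genes, 14.9% were higher in Mpb-gata1-2 by the same test, and 23.9% had their libraries separated in this way.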

How the results depend on the processing

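The 5 genes were above BoGa in every alternative, but the size of the log2 difference fell with a pseudocount of 1 on TPM or RPKM, to as little as 2.22 for MpLEA-like43 and MpLEA-like44, which understates low genes. The number of the 5 that passed between the mutants, 1 in the main test, was 4 with only the groups compared, 2 with limma on log2(TPM + 1), 3 with limma on log2(RPKM + 1) and 1 to 5 when single libraries were left out. For the other LEA genes of the array it was 2, and 1 with upper-quartile factors, the replicate block, only the groups compared or limma on log2(RPKM + 0.1), 3 with DESeq2 or limma with a pseudocount of 1 on TPM or RPKM, and 1 to 6 when single libraries were left out. The cause of these changes was not tested, and fits with libraries or groups left out also hold fewer samples. Genes lower in the mean of the mutants numbered 3824, and 2545 with limma on log2(TPM + 1). Same-numbered libraries did not deviate together (Pearson's r across genes -0.116 to 0.161 over 9 pairs, against -0.168 to 0.186 for differently numbered ones). This check showed no pairing by number, but it cannot exclude one that touches few genes. The replicate block changed no call among the 5 genes. BoGa levels of 7 to 23 reads per group for the 4 genes other than MpLEA-like36 limit the precision of their ratios.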

Other observations

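Other runs of neighbouring LEA genes also rose, where 22.7% of all tested genes rose in the mean of the mutants. On chromosome 4, the 6 LEA genes from MpLEA-like22 (Mp4g14800) to MpLEA-like27 (Mp4g14880) all rose in the mean of the mutants (edgeR, adjusted p under 0.05), with log2 changes of 0.82 to 1.81. MpLEA-like24 and MpLEA-like25 among them overlap Mp4g14810 and had no unique reads, so their reads cannot be assigned to them. The other 4 had at least 87.9% unique reads and rose by 0.92 (MpLEA-like22), 1.32 (MpLEAL2), 1.01 (MpLEA-like26) and 1.81 (MpLEA-like27). A second run on chromosome 6, from MpLEA-like51 (Mp6g13340) to MpLEA2 (Mp6g13390), held 4 such genes, and the 3 tested rose by 3.65 to 4.93. The largest rise was that of MpLEA-like52, with 1, 1 and 0 BoGa reads. This gene passed the filter on low counts through the mutant libraries, and MpLEA-like51 had too few reads to be tested. The filter thus partly fixed this count. Both runs were chosen after their values had been seen.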
